A study of Mus musculus with 6 samples.

Results

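The astrocyte genes are 33 genes for the identity, glutamate uptake, coupling and metabolism of astrocytes. They were chosen by name, with earlier results of these data known. All 33 symbols were found once each among the 21540 gene records of the deposited table, and all 33 were among the 14959 records that the authors marked as tested. The values come from RNA sequencing of the nucleus accumbens, a part of the ventral striatum that serves reward, in C57BL/6 mice. One group had been injected intraperitoneally with cocaine (20 mg/kg) on 7 days, once a day, and the other with saline, and both were labelled as 4 h into withdrawal, with 3 cocaine and 3 saline libraries. Neither the age of the mice nor whether a library holds 1 animal or a pool is given in the sources used here. The deposited table holds 1 FPKM value (fragments per kilobase of transcript, relative to the library total) per group, so no value per library and no spread between libraries stand beside the numbers. Whether a difference exceeds that spread therefore rests on the authors' own test, and read depth is unknown.

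Astrocytes are the glial cells whose fine processes wrap synapses and blood vessels. They take up the glutamate that neurons release, turn it into glutamine, buffer potassium and water, pass small molecules to each other through gap junctions, and secrete lipoproteins. In the accumbens the astrocyte glutamate transporter encoded by Slc1a2 is well known in cocaine research, since in rats its protein is reduced after long self-administration of the drug. Several of the 33 genes are not exclusive to astrocytes: Apoe and Cst3 are also strong in microglia, Glul in oligodendrocytes, Vim and Id3 in vessel cells, and Clu in ependyma and choroid plexus.

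None of the 33 astrocyte genes passed the threshold of q < 0.05 in the authors' deposited table, in either direction. Across all tested records 1.23% passed that threshold, so the count of 0 lies near the background. At an unadjusted p under 0.05 the authors' deposited table held 8 of the 33, of which 3 had higher values after cocaine (2.02% of all tested records did) and 5 had lower values (3.74% did). The 3 were Slc1a2, Aqp4 and S100b, and the 5 were Cst3, Fabp7, Ntsr2, Gfap and Ndrg2. The median log2 fold change of the 33, cocaine over saline, was -0.010, and that of 12833 tested genes of at least 1 FPKM was -0.021. The differences ran in both directions, with 15 of 33 genes above 0 and 18 below. The share above 0 was 45.5% in the 33 and 40.7% in those 12833 genes. With the values centred on the median of all genes 21 were above 0 and 12 below, so no common direction can be read from the split.

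All 33 genes were detected in both groups, including the defining markers Gfap, Aqp4, Aldh1l1, Slc1a2, Slc1a3, Gja1, Gjb6 and S100b. Levels ran from 1.51 FPKM in cocaine mice and 1.38 FPKM in saline mice for Slc14a1, a urea transporter, up to 1764 FPKM in cocaine mice and 1777 FPKM in saline mice for Apoe, the main brain apolipoprotein. The median level was 44.1 FPKM in the cocaine group and 44.5 FPKM in the saline group, and 11 of the 33 had a mean of at least 100 FPKM. Apoe, Cst3, Aldoc and Glul held 64.3% of the summed FPKM of the 33 genes in the cocaine group and 65.4% in the saline group. The sum itself was 7216 FPKM in the cocaine group and 7248 FPKM in the saline group, or 1.28% and 1.31% of the table in cocaine and in saline mice. The first 21 genes in the order of levels were in the same order in both groups. Below them Aldh1l1 and Fabp7 stood in opposite order in the groups, and Vim ranked 28 in the cocaine group and 25 in the saline group. Without values per library, neighbours in this order cannot be said to differ. In bulk tissue, fewer astrocytes and less RNA per astrocyte cannot be told apart.

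**Figure D1:**
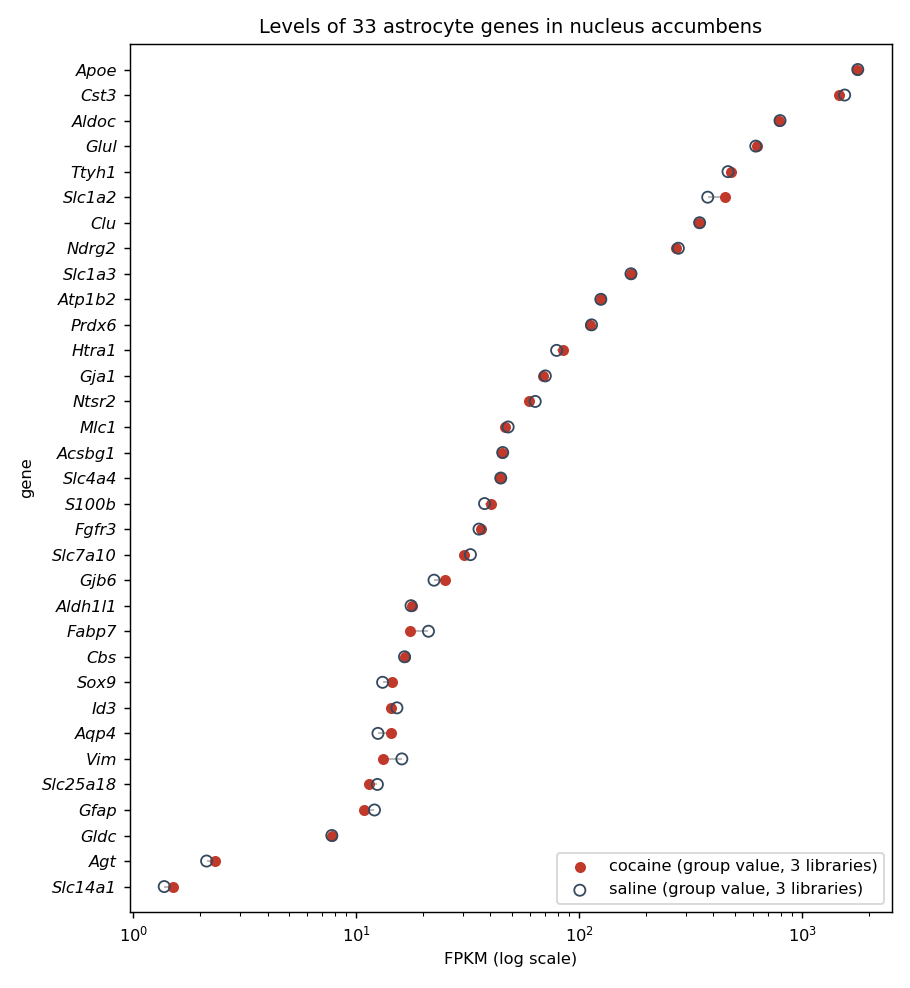
Group FPKM of each of the 33 astrocyte genes on a log axis, with filled points for the cocaine group and open points for the saline group, each a value over 3 libraries. The paired points nearly coincide for most genes, from Apoe at 1764 and 1777 FPKM to Slc14a1 at 1.51 and 1.38 FPKM in cocaine and saline mice, and stand visibly apart for Slc1a2, Fabp7 and Vim.

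Glutamate uptake by astrocytes rests on the transporters encoded by Slc1a2 and Slc1a3. Slc1a2, which encodes the transporter that carries most of the forebrain's glutamate uptake, stood at 453 FPKM in cocaine mice and 377 FPKM in saline mice. The cocaine value was 20.0% higher, and the authors' deposited table gives a log2 fold change of 0.26 (p = 0.0345, q = 0.968). Slc1a3, the second astrocyte transporter and the first to appear in development, stood at 171.3 FPKM in cocaine mice and 170.7 FPKM in saline mice. Its log2 fold change was 0.0048 in the authors' deposited table (p = 0.930). The ratio of Slc1a2 to Slc1a3 was 2.64 in the cocaine group and 2.21 in the saline group, a pair set side by side after the values were seen. Neither transporter passed the threshold, and the difference between them was not tested.

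The enzymes that handle glutamate and related amino acids inside astrocytes were close to equal in the groups. Glul, glutamine synthetase, which turns the captured glutamate into glutamine, stood at 629 FPKM in cocaine mice and 620 FPKM in saline mice (log2 fold change 0.021 and p = 0.610 in the authors' deposited table). Gldc, the glycine-cleaving decarboxylase, stood at 7.78 FPKM in cocaine mice and 7.77 FPKM in saline mice. Cbs, which makes cystathionine from homocysteine, was at 16.5 FPKM in both cocaine and saline mice. The carriers Slc25a18 and Slc7a10 had lower group values after cocaine, without passing the threshold. Slc25a18, a mitochondrial glutamate carrier, stood at 11.4 FPKM in cocaine mice and 12.4 FPKM in saline mice, with a p of 0.153 in the authors' deposited table. Slc7a10, an exchanger of glycine and D-serine, stood at 30.5 FPKM in cocaine mice and 32.5 FPKM in saline mice, with a p of 0.643 in the authors' deposited table. Of these 7 transport and amino acid genes 5 were above 0 and 2 below, with a median log2 fold change of 0.0043.

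Among 10 genes of astrocyte identity and cytoskeleton, the intermediate filament genes had lower values after cocaine. Gfap, the filament protein that defines astrocytes and accumulates when they become reactive, stood at 10.8 FPKM in cocaine mice and 12.1 FPKM in saline mice. Its log2 fold change was -0.16 in the authors' deposited table (p = 0.0166, q = 0.651). Vim, a second filament protein, stood at 13.2 FPKM in cocaine mice and 16.0 FPKM in saline mice (-0.28, p = 0.179 in the authors' deposited table). Fabp7, a lipid-binding protein abundant in radial glia and young astrocytes, stood at 17.3 FPKM in cocaine mice and 21.1 FPKM in saline mice. It had the same size of difference as Vim, -0.28, but a p of 0.0042 and a q of 0.258 in the authors' deposited table. None of the 3 passed the threshold.

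Vessel cells also transcribe Vim and Id3, and markers of those cells also had lower values after cocaine. All 22 tested markers of endothelium and mural cells had values below 0, none was listed at 0, and their summed level was 108 FPKM in the cocaine group and 126 FPKM in the saline group. Cldn5, the tight junction protein of brain endothelium, was the 1 marker past the threshold, beside 0.709% of all tested records that fell. It fell to 7.46 FPKM in cocaine mice, against 10.2 FPKM in saline mice (-0.45, q = 0.00123 in the authors' deposited table). Id3, an inhibitor of basic helix-loop-helix factors, stood at 14.3 FPKM in cocaine mice and 15.2 FPKM in saline mice, with a p of 0.695 in the authors' deposited table. The part of vessel cells in the values of Vim and Id3 was not tested.

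The remaining identity genes ran in both directions. Aldh1l1, a folate-pathway dehydrogenase used as a general astrocyte marker, stood at 17.9 FPKM in cocaine mice and 17.6 FPKM in saline mice (0.020, p = 0.880 in the authors' deposited table). Sox9, a transcription factor that directs the making of glia, stood at 14.5 FPKM in cocaine mice and 13.1 FPKM in saline mice (0.14, p = 0.370 in the authors' deposited table). S100b, a calcium-binding protein also made by oligodendrocytes, stood at 40.3 FPKM in cocaine mice and 37.6 FPKM in saline mice (0.099, p = 0.0321, q = 0.941 in the authors' deposited table). Aldh1l1, Sox9 and S100b thus had equal or higher values after cocaine, without passing the threshold. Ntsr2, a neurotensin receptor of astrocytes, stood at 59.5 FPKM in cocaine mice and 63.5 FPKM in saline mice (-0.095, p = 0.00736, q = 0.380 in the authors' deposited table). Fgfr3, a fibroblast growth factor receptor, stood at 36.3 FPKM in cocaine mice and 35.5 FPKM in saline mice. The 10 identity genes divided evenly, with 5 above 0 and 5 below, and their median log2 fold change was -0.033.

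The genes of coupling, water and ion balance also divided. Aqp4, the water channel of the end-feet around vessels, stood at 14.3 FPKM in cocaine mice and 12.5 FPKM in saline mice. Its log2 fold change was 0.19 in the authors' deposited table (p = 0.0451, q = 0.999976), and it did not pass the threshold. The connexins that join astrocytes into a network did not differ alike. Gja1, the more abundant of them, stood at 69.1 FPKM in cocaine mice and 70.5 FPKM in saline mice (-0.029, p = 0.565 in the authors' deposited table). Gjb6 stood at 24.9 FPKM in cocaine mice and 22.3 FPKM in saline mice (0.16, p = 0.704 in the authors' deposited table). The ratio of Gja1 to Gjb6 was 2.77 in the cocaine group and 3.16 in the saline group, again set side by side after the values were seen, and that difference was not tested.

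Atp1b2, a beta subunit of the sodium-potassium pump, stood at 124.7 FPKM in cocaine mice and 125.1 FPKM in saline mice. Slc4a4, a sodium bicarbonate cotransporter that sets pH, stood at 44.1 FPKM in cocaine mice and 44.5 FPKM in saline mice. Both differed by under 1%, a difference of -0.31% for Atp1b2 and -0.92% for Slc4a4. Ndrg2, a cytosolic protein used to mark astrocyte cell bodies, stood at 271 FPKM in cocaine mice and 278 FPKM in saline mice (-0.040, p = 0.0333, q = 0.955 in the authors' deposited table). Mlc1, a membrane protein of end-feet that is mutated in a childhood leukoencephalopathy, stood at 46.3 FPKM in cocaine mice and 48.0 FPKM in saline mice. Ttyh1, of the tweety family of membrane proteins, stood at 480 FPKM in cocaine mice and 465 FPKM in saline mice. Of these 8 genes 3 were above 0 and 5 below, with a median log2 fold change of -0.0089.

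The metabolic genes were the most even of the roles. Aldoc, the brain isoform of the glycolytic enzyme aldolase, stood at 787 FPKM in cocaine mice and 796 FPKM in saline mice (-0.015, p = 0.578 in the authors' deposited table). Acsbg1, an acyl-CoA synthetase, stood at 45.0 FPKM in cocaine mice and 45.4 FPKM in saline mice. Prdx6, a peroxiredoxin that reduces lipid peroxides, stood at 111 FPKM in cocaine mice and 114 FPKM in saline mice. All 3 log2 fold changes lay between -0.027 and -0.011, and none had a p under 0.05 in the authors' deposited table. Aldoc and Acsbg1 turned to 0.0057 and 0.0099 once the values were centred on the median of all genes.

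Of 5 genes for secreted proteins, Cst3 had the smallest p of all 33. Cst3, the protease inhibitor cystatin C, stood at 1458 FPKM in cocaine mice and 1552 FPKM in saline mice, a difference of -6.02%. In the authors' deposited table its log2 fold change was -0.090, its p was 0.0035 and its q was 0.222. Apoe, which carries cholesterol between brain cells, stood at 1764 FPKM in cocaine mice and 1777 FPKM in saline mice (-0.010, p = 0.574 in the authors' deposited table). Clu, a chaperone found on the same lipoprotein particles, stood at 344 FPKM in cocaine mice and 347 FPKM in saline mice (-0.013, p = 0.592 in the authors' deposited table). Both lipoprotein genes thus differed by under 1%. Htra1, a serine protease, stood at 84.3 FPKM in cocaine mice and 79.2 FPKM in saline mice (0.089, p = 0.160 in the authors' deposited table). Agt, the precursor of angiotensin, was near the bottom of the order at 2.33 FPKM in cocaine mice and 2.13 FPKM in saline mice. Microglia, which also make Apoe and Cst3, had a marker median of 0.049, with 12 of 18 markers above 0 and summed levels of 353 FPKM in the cocaine group and 348 FPKM in the saline group.

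**Figure D2:**
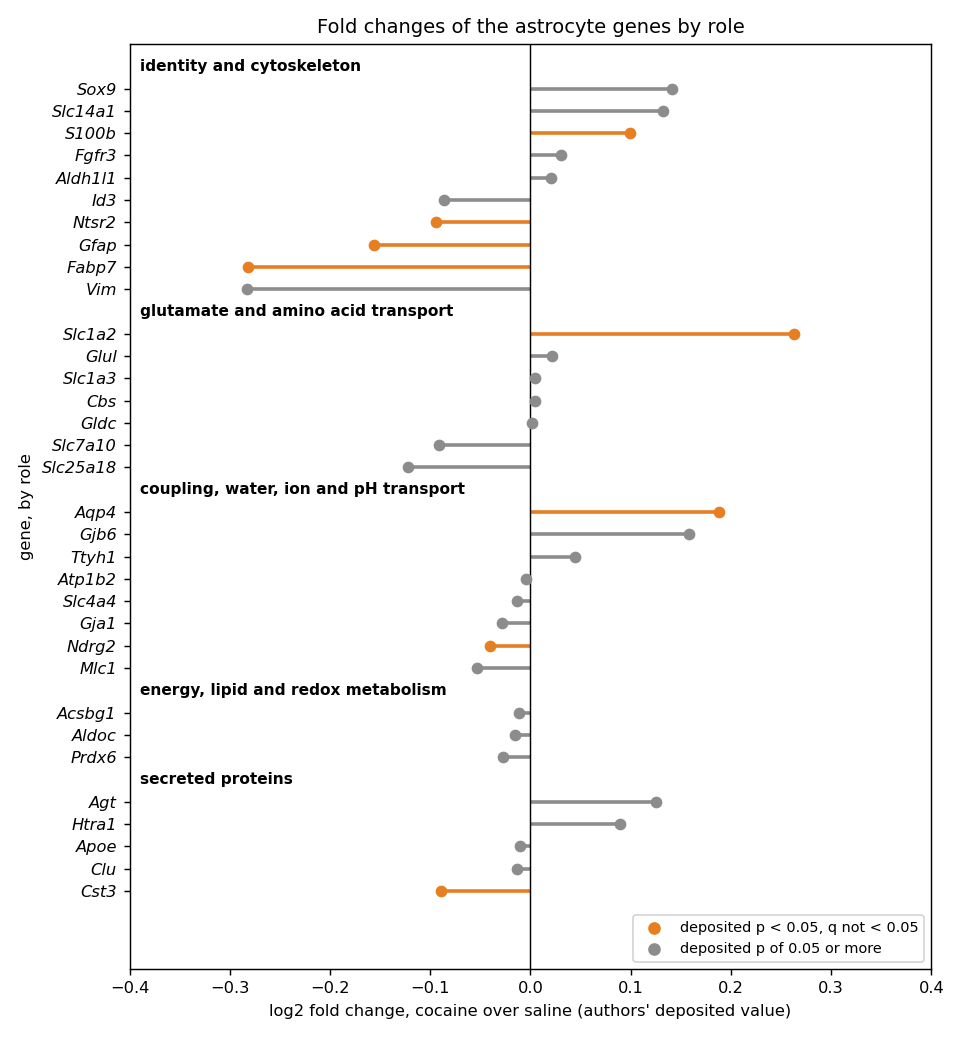
Log2 fold change, cocaine over saline, of each astrocyte gene in the authors' deposited table, grouped by role; orange marks the 8 genes with an unadjusted p under 0.05, none of which had q < 0.05. Bars run both ways in most roles, from -0.28 for Vim and Fabp7 to 0.26 for Slc1a2, and the 3 metabolic genes lie next to 0.

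The size of a difference and its p did not follow the same order among the 33 genes. Slc1a2 and Ndrg2 had nearly the same p, 0.0345 and 0.0333 in the authors' deposited table, with log2 fold changes of 0.26 and -0.040. Vim and Fabp7 had nearly the same log2 fold change, with p of 0.179 and 0.0042 in the authors' deposited table. Gjb6 had a larger difference than S100b, 0.16 against 0.099, but a p of 0.704 against 0.0321 in the authors' deposited table. How the authors' test weighed the spread of each gene is not given in the sources used here.

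In size the share of genes near 0 was close in the 33 and in the table, but their levels were unlike. The median level percentile was 86.7 for the 33 and 56.6 for all tested genes of at least 1 FPKM. The shares were not compared at like level. Of the 33, 30 (90.9%) lay within 0.2 of 0 on the log2 scale, as did 89.5% of the 12833 tested genes of at least 1 FPKM. The 3 outside were Vim, Fabp7 and Slc1a2. Differences of that size did pass the threshold in other genes of like level. Among tested genes with a mean of 10 to 100 FPKM, 98 (1.58%) had q < 0.05 in the authors' deposited table, with a median absolute log2 fold change of 0.14 and a smallest of 0.048. Among those of at least 100 FPKM, 64 (8.73%) had q < 0.05 in the authors' deposited table, with a median absolute log2 fold change of 0.11.

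An unadjusted p under 0.05 was found in 24.2% of the 33 genes and in 5.76% of all tested records. Among tested genes of at least 100 FPKM 25.9% had such a p, and 3 of the 11 astrocyte genes of that level did, Cst3, Slc1a2 and Ndrg2. Among genes of 10 to 100 FPKM 7.27% had such a p, and 5 of 19 astrocyte genes did, Fabp7, Ntsr2, Gfap, S100b and Aqp4. Among genes of 1 to 10 FPKM 3.26% had such a p, and 0 of 3 astrocyte genes did. These bands of level were chosen after the data were seen, and they describe the libraries without testing the list.

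**Figure D3:**
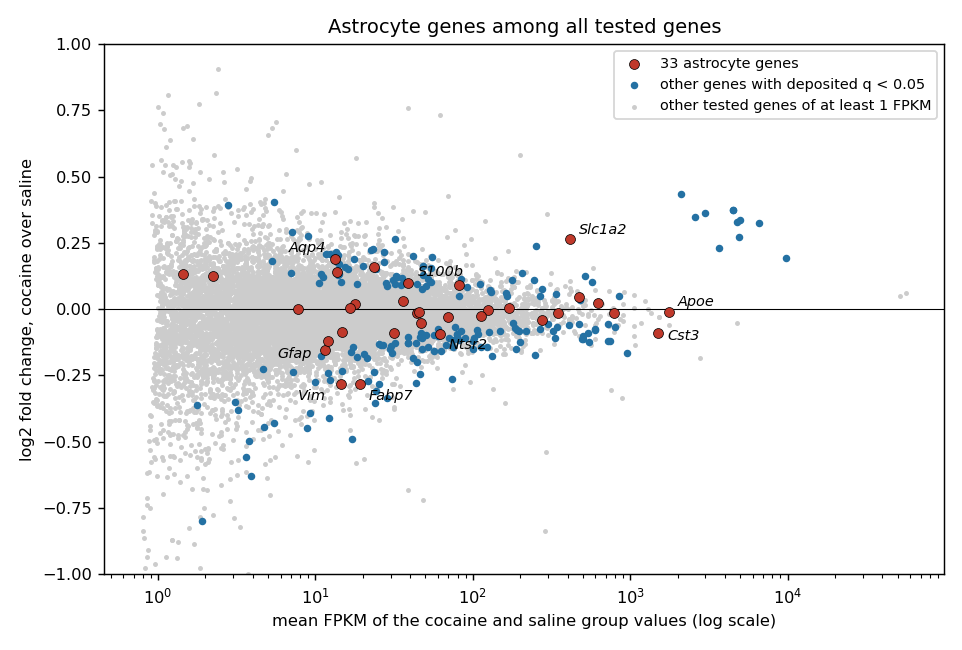
Log2 fold change, cocaine over saline, against mean FPKM on a log axis for the tested genes of at least 1 FPKM, with the 33 astrocyte genes in red and other genes of deposited q < 0.05 in blue. The red points stay between -0.28 and 0.26, among the grey points, and 36 genes beyond the plotted range of -1 to 1 are not drawn.

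Other genes of astrocyte biology gave a few calls in both directions. Of 49 tested genes enriched in astrocytes, 3 rose, 1 fell and 45 missed the threshold in the authors' deposited table. Across all tested records 0.521% rose and 0.709% fell. The list was chosen with earlier results of these data known, so an excess of calls in it was not tested. Sparcl1, the secreted synapse-promoting protein hevin, rose to 284 FPKM in cocaine mice, against 269 FPKM in saline mice (0.077, q = 5.39e-09 in the authors' deposited table). Dio2, the deiodinase with which astrocytes make active thyroid hormone, rose to 7.84 FPKM in cocaine mice, against 6.42 FPKM in saline mice (0.29, q = 2.21e-05 in the authors' deposited table). Daam2, a formin that acts in Wnt signalling, rose to 14.8 FPKM in cocaine mice, against 13.5 FPKM in saline mice (0.13, q = 0.0210 in the authors' deposited table). With the table-wide trend of fold change over transcript GC content and length removed, these log2 fold changes were 0.10 for Sparcl1, 0.26 for Dio2 and 0.15 for Daam2. Mfge8, a secreted bridge to phosphatidylserine on cells to be engulfed, fell to 105 FPKM in cocaine mice, against 112 FPKM in saline mice (-0.094, q = 0.0353 in the authors' deposited table), and stood at -0.028 with that trend removed. The list median was -0.024, and 22 of the 49 lay above 0.

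The metabolic partners of the astrocyte genes gave few calls, beside 0.521% of all tested records that rose and 0.709% that fell. In the glutamate and glutamine cycle 1 of 18 tested genes fell, none rose and 17 missed the threshold in the authors' deposited table, with a median of -0.013. That gene was Slc17a7, a vesicular glutamate transporter of neurons and not of astrocytes, which fell to 44.9 FPKM in cocaine mice, against 49.9 FPKM in saline mice (-0.15, q = 3.70e-05 in the authors' deposited table), and stood at -0.077 with the trend removed. In the list for glycogen, lactate and glycolysis 1 of 29 fell, none rose and 28 missed the threshold in the authors' deposited table, with a median of -0.026. That gene was Aldoa, the aldolase of most tissues, which fell to 784 FPKM in cocaine mice, against 822 FPKM in saline mice (-0.069, q = 0.00263 in the authors' deposited table), and stood at -0.0062 with the trend removed. Its astrocyte counterpart Aldoc differed by -0.015, as given above.

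Of all tested records 1.23% passed the threshold and 5.76% had an unadjusted p under 0.05 in the authors' deposited table. A count of 0 calls in a short list lies near the first share. Serine, glycine and one-carbon enzymes gave 0 calls among 12, with 0 at an unadjusted p under 0.05 in the authors' deposited table and a median of -0.036. Shmt2, a hydroxymethyltransferase of mitochondria, had the smallest p among them, 0.128 in the authors' deposited table, and its cytosolic counterpart Shmt1 was next at 0.288. Water, ion and coupling genes outside the 33 gave 0 calls among 19, with 0 at an unadjusted p under 0.05 in the authors' deposited table. The median of their 15 genes of at least 1 FPKM was -0.012. Dtna, a dystrobrevin of the complex that anchors Aqp4 at end-feet, stood at 37.1 FPKM in cocaine mice and 33.8 FPKM in saline mice (0.13, p = 0.119 in the authors' deposited table). The anchor's dystroglycan, Dag1, stood at 21.8 FPKM in cocaine mice and 22.8 FPKM in saline mice (-0.067, p = 0.176 in the authors' deposited table). Lipoprotein and cholesterol genes gave 0 calls among 23. Among them 2 with lower values had an unadjusted p under 0.05 in the authors' deposited table, beside 3.74% of all tested records.

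Markers of the other cells of the tissue set the frame for these values. Neuron markers gave a median of -0.0065 over 19 genes, oligodendrocyte markers -0.030 over 18, precursor markers -0.016 over 12 and microglial markers 0.049 over 18. None of these genes passed the threshold in the authors' deposited table, beside 1.23% of all tested records that did. An unadjusted p under 0.05 was found there for 2 higher and 5 lower neuron genes, 2 higher and 1 lower oligodendrocyte genes, 1 lower precursor gene and 0 microglial genes. Such a p was found in 5.76% of all tested records and in 25.9% of tested genes of at least 100 FPKM. Of the 19 neuron genes 12 had that level. The smallest p among neuron genes were those of Uchl1, a neuronal deubiquitinase (-0.086, p = 0.00193), and Ppp1r1b, the spiny neuron phosphatase regulator (-0.060, p = 0.00508), in the authors' deposited table. Among oligodendrocyte genes they were those of Mbp, myelin basic protein (0.032, p = 0.0114), and Ppp1r14a (-0.24, p = 0.0194), in the authors' deposited table. Those of the glial precursors were Bcan, a matrix proteoglycan that astrocytes also make (-0.044, p = 0.0251), and Olig2 (0.13, p = 0.0574), in the authors' deposited table. The microglial C1qb (0.093, p = 0.111) and Cx3cr1 (0.065, p = 0.165) led theirs in the authors' deposited table. With the trend over GC content and length removed, Uchl1 stood at -0.019, Ppp1r1b at 0.0071, Bcan at 0.035 and Olig2 at 0.19. Mbp stood at 0.051, Ppp1r14a at -0.16, C1qb at 0.16 and Cx3cr1 at 0.084 with that trend removed. Endothelial and mural markers had a median of -0.16 over 21 genes of at least 1 FPKM. Of their 22 tested genes 0 higher and 4 lower had an unadjusted p under 0.05 in the authors' deposited table. Among choroid plexus and ependymal markers 1 of 13 tested genes passed, beside 0.521% of all tested records that rose. That gene was Ttr, the choroid plexus transthyretin. It rose to 10.8 FPKM in cocaine mice, against 0.668 FPKM in saline mice (4.02, q listed as 0 in the authors' deposited table). The median of the 7 genes of that list of at least 1 FPKM was -0.10, and Ttr was the only 1 of them above 0. Clu, which choroid plexus and ependyma also make, differed by -0.91%.

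**Figure D4:**
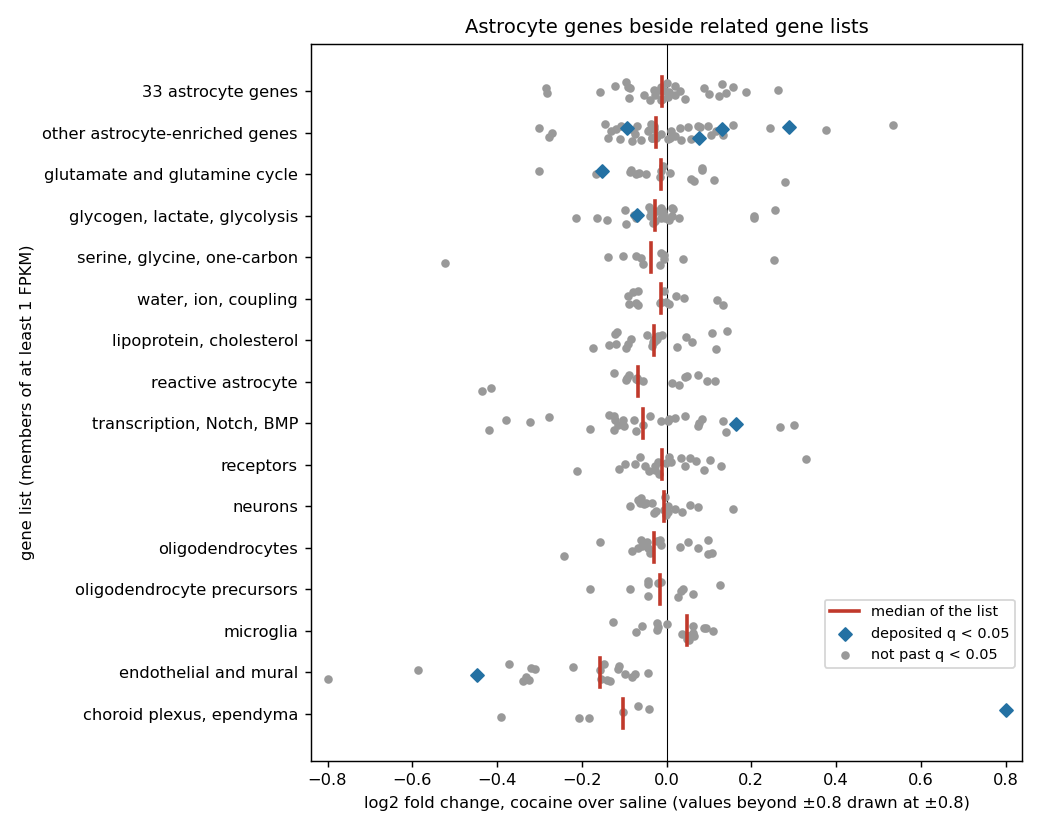
Log2 fold change, cocaine over saline, of each gene of at least 1 FPKM in the 33 astrocyte genes and in 15 related lists, with the list median as a red bar and genes of deposited q < 0.05 as blue diamonds; values beyond 0.8 are drawn at the edge. The astrocyte median of -0.010 lies beside those of neurons (-0.0065) and precursors (-0.016), while the endothelial and mural median lies at -0.16.

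The members also differed in the make-up of their transcripts, which the choice of genes did not use. All 33 matched a longest transcript in GENCODE mouse release M21, a later annotation than the authors' build. GC content ran from 41.4% for Aqp4 to 59.5% for Apoe, with a median of 51.9%, against 49.9% over 12566 matched genes. Lengths ran from 860 bases for Cst3 to 11595 bases for Slc1a2, with a median of 2792 bases, against 3407.5 bases over the matched genes. Across the 33 genes the log2 fold change had a Spearman's rho of -0.21 against GC content and of 0.43 against length. Over all 12566 matched genes the GC value was -0.30 and the length value 0.18. These are descriptions over genes that share the same libraries, and genes are not replicates.

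The gene of the highest fold change, Slc1a2, had the longest transcript, and Aqp4, next in fold change, had the lowest GC content. With the trend over GC content and length removed, Slc1a2 stood at 0.22, Aqp4 at 0.15, S100b at 0.13, Gfap at -0.095, Fabp7 at -0.22 and Vim at -0.28. Cst3, the gene of the smallest p, moved to -0.023 from its deposited -0.090, and Ndrg2 to 0.0032 from its deposited -0.040. Ntsr2 moved to -0.050 from its deposited -0.095, and Slc7a10 to -0.026 from its deposited -0.091. After this removal 21 of the 33 genes were above 0 and 12 below, with a median of 0.030. Spearman's rho across the 33 was then -0.0050 against GC content and 0.24 against length.

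**Figure D5:**
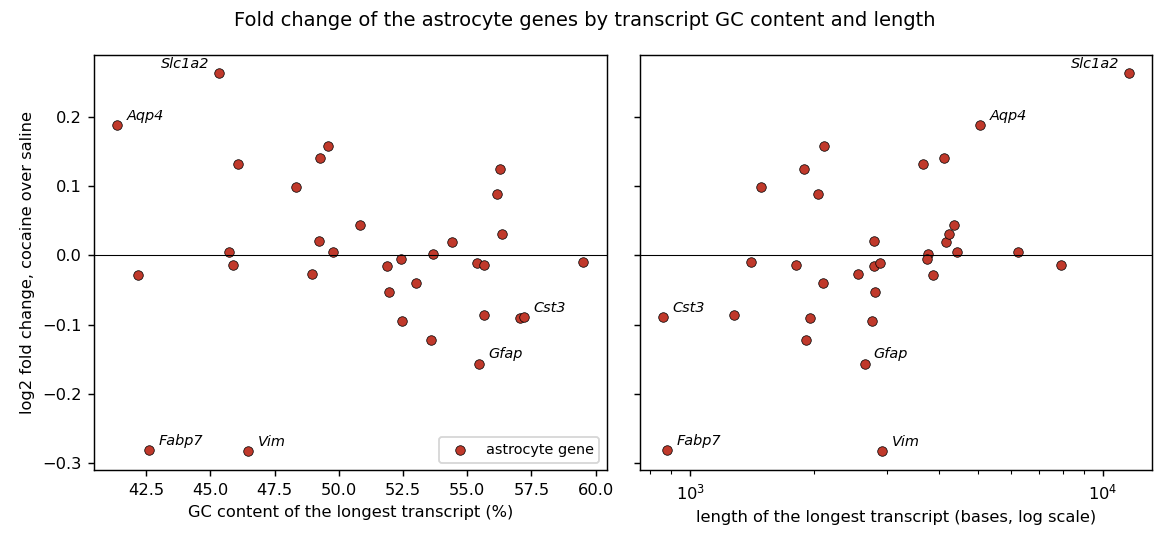
Log2 fold change, cocaine over saline, of the 33 astrocyte genes against the GC content (left, percent) and the length (right, bases, log axis) of the longest transcript, 1 point per gene. Spearman's rho is -0.21 in the left panel and 0.43 in the right panel, where Slc1a2 lies at 11595 bases.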

How the data were processed

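Reads were processed by the authors with TopHat2 2.0.6 and Cufflinks 2.0.2 on build NCBIM37, per the submitters' processing notes. Their settings, annotation and strand use are not stated there. The table has the layout of a Cuffdiff gene table. Its group values, 1 per group over the libraries, were deposited by the authors and are taken here as FPKM, which such tables hold, although the table itself names no unit. Per the file headers the first value is saline and the second cocaine. FPKM is relative to the library total. Every p-value and q-value is the authors' own, as deposited. Log2 fold changes recomputed from the FPKM lay within 1.28e-05 of the deposited ones. Grouping used the treatment label, since the protocol text of saline libraries also describes cocaine.

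Calls were made where the deposited q was below 0.05. For all-gene summaries and lists, 1 record per symbol (the highest mean FPKM) was used if 1 of its groups reached 1 FPKM, and calls were counted over all tested members. The planned test on values per library was not run, since the table holds none. The 33 members, their roles and 15 gene lists were chosen with earlier results of these data known. Named were all 33 members, up to 4 called genes of each list with the smallest q, otherwise up to 2 with the smallest p, and Dio2 and Ttr. The 2 genes this rule named in the lipoprotein and cholesterol list are not reported here. The GC and length trend was removed by subtracting the median of each cell of 10 GC by 10 length bins (GENCODE M21; 97.9% of genes matched), a step tested on simulated data. Other alternatives were thresholds, FPKM minimums, a pseudocount of 1 and rescaling. Python 3.11.15, pandas 2.3.3 and numpy 2.4.6 were used. Reads shared between near-identical copies or overlapping genes could not be checked from the table.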

Additional observations from a re-analysis of the deposited data

How the results depend on the processing

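The count of 0 astrocyte genes past the threshold was also found at q < 0.01, with a minimum absolute log2 fold change of 0.1, and with the deposited p-values adjusted again by Benjamini-Hochberg over all tested records or over those of at least 1 or 5 FPKM. At an unadjusted deposited p under 0.05 it was 3 higher and 5 lower. Among 228 tested genes of the 9 astrocyte pathway lists 8 higher and 14 lower had such a p (4 and 3 at q < 0.05). Among 100 tested genes of the 6 lists of other cell types 5 higher and 11 lower did (1 and 1). Of all tested records 2.02% were higher and 3.74% lower at that p, and 0.521% and 0.709% at q < 0.05. A minimum absolute log2 fold change of 0.1 left 1 lower gene in the pathway lists. Adjusted again over all tested records or those of at least 1 FPKM, 2 genes were lower in the lists of other cell types, and 5 were higher in the pathway lists, as also over records of at least 5 FPKM. The median of the 33 astrocyte genes, -0.010 as deposited, was 0.011 when centred on all genes and 0.030 after the trend over GC content and length was removed, and turned to 0.0089 with upper quartile scaling and 0.0016 without 8 genes abundant in other cells. The sign of 6 of the 33 genes turned under centring, and of the same 6 under upper quartile scaling. Trend removal also turned 6, with Ndrg2 in place of Slc4a4. All of these genes were within 0.05 of 0 as deposited. A pseudocount of 1 and scaling without mitochondrially encoded mRNAs turned 0. No paired analysis was possible because the table holds 1 value per group, and for the same reason no library could be left out. Read depth is unknown, so no detection limit can be given.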

Other observations

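Of all tested records 1.23% passed the threshold of q < 0.05, and 3.74% had a lower value at an unadjusted p under 0.05. A count of 0 calls in a short list lies near the first share. Genes that rise in reactive astrocytes gave 0 calls among 30 tested, and 1, with a lower value, had an unadjusted p under 0.05 in the authors' deposited table. That gene was Nes, the intermediate filament nestin, at 0.994 FPKM in cocaine mice and 1.34 FPKM in saline mice (log2 fold change -0.43, q = 0.841 in the authors' deposited table). Lcn2, a lipocalin induced strongly in reactive astrocytes, was at 0.108 FPKM in cocaine mice and 0.270 FPKM in saline mice, both under 1 FPKM. The median of the 17 genes of at least 1 FPKM was -0.068, and -0.023 with the trend over GC content and length removed. That of all tested genes of at least 1 FPKM was -0.021 as deposited. Of the 17 genes 12 were under 5 FPKM. With a pseudocount of 1 the log2 fold change of Nes was -0.23.

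Of 32 tested transcription, Notch and BMP genes, 1 rose, none fell and 31 missed the threshold in the authors' deposited table. Across all tested records 0.521% rose and 0.709% fell at that threshold, and 2.02% had a higher value at an unadjusted p under 0.05. Bmpr2, a receptor for bone morphogenetic proteins, rose to 21.3 FPKM in cocaine mice, against 19.0 FPKM in saline mice (0.16, q = 0.00784 in the authors' deposited table), and stood at 0.099 with the trend over GC content and length removed. Among 23 tested receptors found on astrocytes 0 passed, and 2, both with higher values, had an unadjusted p under 0.05 in the authors' deposited table. Ntrk2, the receptor of brain-derived neurotrophic factor, stood at 79.0 FPKM in cocaine mice and 75.3 FPKM in saline mice, just outside the threshold (0.069, q = 0.0589 in the authors' deposited table). Grm5, a metabotropic glutamate receptor also made by spiny neurons, stood at 74.2 FPKM in cocaine mice and 69.7 FPKM in saline mice (0.090, q = 0.308 in the authors' deposited table).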
